A study of Homo sapiens with 14 samples.

Results

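Heat shock factors HSF1 and HSF2 were mapped by ChIP-seq, the sequencing of DNA immunoprecipitated with an antibody to each factor, in the established erythroleukemia line K562, and their peaks in freely cycling cells kept without heat are described here. All deposited peaks of both lists were taken, with no minimum of enrichment or p-value: 4718 HSF1 peaks and 875 HSF2 peaks, together 5593 of the 117699 peaks in the 12 peak lists of the series. Each list comes from 1 library, and each library from 10 pooled immunoprecipitations, so no replicate error can be given and no test of one antibody against the other was possible. Intervals below are 95% intervals that cover counting error only.

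The groups used were HSF1, non-treated cycling; HSF2, non-treated cycling; and the non-specific antibody control, IgG, non-treated cycling. HSF1, HSF2 and IgG of heat-treated cycling cells (42 °C for 30 min, against growth at 37 °C) were set beside them, and the 6 lists of mitotic cells were used mainly for the presence or absence of a peak. Peaks were called against 1 input library of cycling cells, which is labelled as heat-treated. The non-treated peaks were therefore called against input from heated cells. Chromatin had been sheared to 100 to 500 bp. Protein levels and expression were not analysed here, so neither the amount of each factor nor the identity of the cells could be checked.

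HSF1 is the factor that drives the classical heat shock response. In unstressed cells it is held mostly inactive, as a monomer bound to chaperones, and on heating it forms trimers that bind heat shock elements, arrays of inverted GAA repeats, in front of chaperone genes. HSF2 has a similar DNA-binding domain and can bind the same elements, also in mixed trimers with HSF1. It is known less as a heat sensor than as a factor of development and differentiation, and it is regulated largely through its amount. Unstressed K562 cells are a setting in which HSF2 has long been studied, because it accumulates when these cells are driven towards the erythroid lineage. Whether the binding sites of both factors coincide before stress is the question this pair of lists addresses.

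The HSF1 library held 14446547 kept tags (the mapped reads left after the peak caller removed surplus duplicates), the HSF2 library 28676943 and the IgG library 14761560. HSF2 was thus sequenced 1.99 times as deeply as HSF1. The smallest peak held 12 tags in the HSF1 list, 17 in the HSF2 list and 12 in the IgG list. Scaled to counts per 1000000 kept tags (CPM), this is a floor of 0.831 CPM for HSF1, 0.593 for HSF2 and 0.813 for IgG. The IgG list holds 15758 peaks, more than both HSF lists together, and its redundant rate was 0.31 before duplicates were removed, against 0 in both HSF lists. It also has another style of alignment name and an input of 36542527 kept tags, against 34815679 for both HSF lists. The effect of these differences was not tested.

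Both lists consisted mostly of weak peaks. In the HSF1 list 2602 peaks (55.2%) held at most 14 tags, the median peak held 14 tags in 615 bp, and the median deposited fold (tags at the summit over those expected from input, as the authors' peak caller gave it) was 2.29. The median HSF2 peak held 39 tags in 1009 bp with a deposited fold of 3.86. The median IgG peak held 13 tags in 584 bp with a fold of 2.5, in a library of nearly the same size as that of HSF1. A deposited fold of at least 10 was reached by 1 HSF1 peak, 5 HSF2 peaks and 0 IgG peaks. The deposited false discovery rate had a median of 5.15% in the HSF1 list and 22.5% in the HSF2 list, and it was at most 5% for 2091 HSF1 peaks and 5 HSF2 peaks. These folds and rates are the authors' own and depend on the depth of each library, so they rank peaks within 1 list, and differences in them between lists are not read as differences in binding.

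Few HSF1 peaks met an HSF2 peak, and most of those that did also met an IgG peak. With an overlap of at least 1 bp, 407 of 4718 HSF1 peaks overlapped an HSF2 peak (8.63%, Wilson interval 7.86 to 9.46%), and 341 of 875 HSF2 peaks overlapped an HSF1 peak (39.0%, 35.8 to 42.2%). These are the same regions seen from both sides, as 417 overlapping pairs. Of all HSF1 peaks 964 (20.4%, 19.3 to 21.6%) overlapped a non-treated cycling IgG peak, and of all HSF2 peaks 342 (39.1%, 35.9 to 42.4%). Among HSF1 peaks with an HSF2 partner the share with an IgG peak was 67.6% (275 of 407), against 15.98% (689 of 4311) among HSF1 peaks without one. Among HSF2 peaks with an HSF1 partner it was 72.7% (248 of 341), against 17.6% (94 of 534) among those without. The intervals of the paired shares do not overlap in either list.

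Setting apart the peaks that themselves met an IgG peak left 132 of 3754 HSF1 peaks with an HSF2 partner (3.52%, 2.97 to 4.15%) and 93 of 533 HSF2 peaks with an HSF1 partner (17.4%, 14.5 to 20.9%). Their partners could still meet an IgG peak. With such partners set apart too, 94 HSF1 peaks (2.50%) and 90 HSF2 peaks (16.9%) kept a partner. In the sets of peaks below, without IgG refers to the peak itself and not to its partner. The largest single set in each list was therefore the peaks found alone and without IgG, with 3622 HSF1 peaks (76.8%) and 440 HSF2 peaks (50.3%). Of these, 2364 HSF1 peaks (65.3%) and 269 HSF2 peaks (61.1%) had no peak in any of the 11 other lists of the series. In heat-treated cycling cells, with the same 1 bp overlap, 2101 of 6447 HSF1 peaks (32.6%) overlapped an HSF2 peak, against the 8.63% of non-treated cells, and 2087 of 4315 HSF2 peaks (48.4%) an HSF1 peak, against 39.0%. The non-treated lists differ more in length (4718 and 875 peaks), and a short HSF2 list limits the share of HSF1 peaks that can meet it. With the non-treated HSF1 list shortened to the HSF2 length by score, 24% of its peaks overlapped an HSF2 peak, and 22.97% of HSF2 peaks overlapped one of them. IgG peaks took part far less there: they overlapped 17.4% of the heat-treated HSF1 peaks that had an HSF2 partner, against 67.6% of the non-treated ones, each measured with the IgG list of its own treatment. The heat-treated IgG list is shorter, with 4377 peaks, against 15758 in the non-treated one. This shorter list overlapped 197 of the 275 non-treated HSF1 peaks with both an HSF2 partner and a non-treated IgG peak (71.6%). It overlapped 50 of the 132 with a partner and without such an IgG peak (37.9%). How much of the contrast between 17.4% and 67.6% comes from the length of the control lists was not tested.

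**Figure D1:**
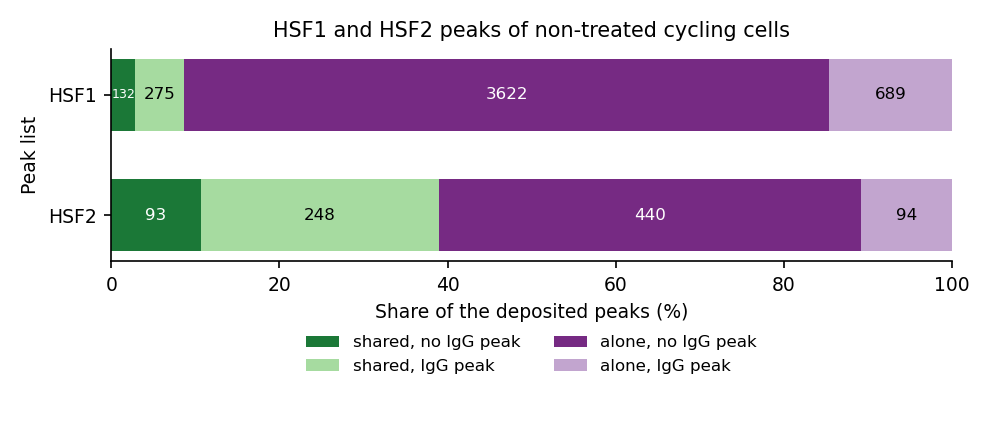
Bars give the share (%) of the 4718 HSF1 and the 875 HSF2 peaks of non-treated cycling cells by overlap with the other factor (shared or alone) and with a non-treated cycling IgG peak, and the numbers are counts of peaks. Peaks that were alone and without IgG make up most of the HSF1 bar (3622) and the largest block of the HSF2 bar (440), and in both bars the shared peaks with IgG (275 and 248) outnumber the shared peaks without (132 and 93). IgG overlap is that of the peak itself and not of its partner.

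The 4 sets differed in size in the same order in both lists. HSF1 peaks alone and without IgG had a median of 0.900 CPM in 596 bp, just above the floor of 0.831. HSF1 peaks with an HSF2 partner and without IgG had a median of 1.87 CPM in 921 bp, those with IgG alone 2.08 in 948 bp, and those with both 3.53 in 1579 bp. In the HSF2 list the medians were 0.837 CPM in 724.5 bp for peaks alone and without IgG, 1.99 in 1128 bp for shared peaks without IgG, 2.23 in 1477 bp for peaks with IgG alone, and 4.93 in 2895.5 bp for shared peaks with IgG. Peaks that overlapped another list were thus the wide ones with many tags, and a wide peak has more room to meet another by 1 bp. The part of width in the overlaps was not tested. The deposited fold was lower in the set with the most tags than in the set with the fewest. Its median was 1.84 for HSF1 peaks with both, against 2.37 for those alone and without IgG, and 2.87 for HSF2 peaks with both, against 4.28 for those alone and without IgG.

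The depth of the HSF1 library limited what could be seen in both lists at once. Of the 440 HSF2 peaks that were alone and without IgG, 211 (48.0%) had a lower CPM than the smallest HSF1 peak, so an HSF1 peak of equal height would not have been listed there. Over the whole HSF2 list this held for 229 peaks (26.2%). The remaining 229 of the 440 lay at or above the HSF1 floor and had no HSF1 peak. The floor is the smallest peak listed, so an HSF1 signal somewhat above it could also have been missed. Per kb, the 440 peaks had a median of 1.16 CPM, against a minimum of 1.17 in the HSF1 list. The lack of an HSF1 peak is therefore not read as absence of HSF1.

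Where peaks of both factors overlapped, their summits often lay apart. Over all 417 pairs the median distance between the HSF1 and the HSF2 summit was 550 bp (interval of the median 391 to 692 bp), and 102 pairs (24.5%) had summits within 100 bp. The 94 pairs in which neither peak met a non-treated cycling IgG peak had a median of 181.5 bp (90 to 280 bp), with 38 pairs (40.4%, 31.1 to 50.5%) within 100 bp and 29 within 50 bp. The 323 pairs with an IgG peak had a median of 741 bp (578 to 914 bp), with 64 (19.8%, 15.8 to 24.5%) within 100 bp. The summits of overlapping pairs lay closer together in heat-treated cycling cells. Their median distance was 41 bp over 2123 pairs, against 550 bp in non-treated cells, and 37 bp over the 1731 pairs without an IgG peak, against 181.5 bp. Of these 1731 pairs 82.6% lay within 100 bp. A wide peak leaves more room between summits. Median widths in the 417 non-treated pairs were 1413 bp for HSF1 and 2735 bp for HSF2. Over the whole heat-treated lists they were 702 and 729 bp. The part of width in the contrast with heat was not tested. Non-treated pairs without IgG whose summits coincided within 100 bp had narrower peaks than the rest. Their median widths were 749.5 bp for HSF1 and 1007 bp for HSF2, against 956.5 bp and 1534.5 bp for the 56 pairs with summits farther apart. Narrow peaks that overlap cannot have distant summits, so this difference is fixed in part by the measure.

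**Figure D2:**
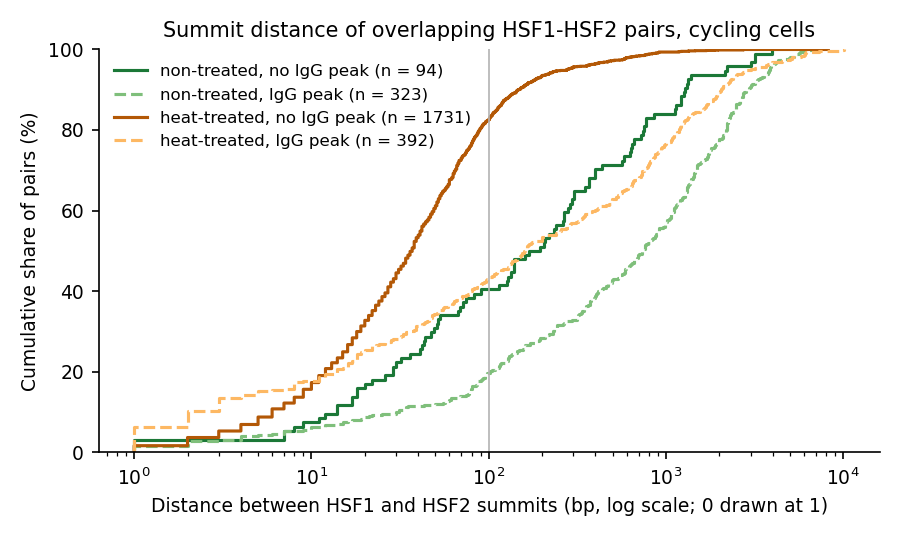
Cumulative share (%) of overlapping HSF1-HSF2 pairs against the distance between their summits (bp, log scale, a distance of 0 drawn at 1), for cycling cells with and without heat and for pairs with and without an IgG peak of the same treatment. The vertical line marks 100 bp, where the curve of heat-treated pairs without IgG has reached 82.6% and those of non-treated pairs 40.4% without and 19.8% with an IgG peak.

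At the limit of the overlap rule stood a pair on chromosome 22, HSF1 chr22:21797375-21801029 and HSF2 chr22:21801029-21806547, which shared 1 bp and had summits 2648 bp apart (all positions are hg19). Just outside it stood HSF1 chr2:87655268-87657030 and HSF2 chr2:87654612-87655266, separated by 1 bp and counted as alone.

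The CPM of a peak set the height of both factors on a common scale, but the order of the factors depended on how the height was measured. Over all 417 pairs the median ratio of HSF1 over HSF2 CPM in the peak was 0.794 (0.715 to 0.866), and it ran between 0.0491 and 6.84. For the 94 pairs without IgG the median was 0.886 (0.798 to 0.993). In these terms HSF1 was lower. However, HSF2 peaks of the pairs were wider, with a median of 2735 bp, against 1413 bp for their HSF1 partners, and a wider peak collects more tags. In CPM per kb of peak the median ratio was 1.26, and by the deposited fold scaled to each library's depth it was 1.25, so with both of these measures HSF1 was higher. Over the whole lists, with or without a partner, the median was 1.57 CPM per kb for HSF1 and 1.30 for HSF2. The same order per kb was therefore not particular to the pairs. No order of the factors at shared peaks can therefore be stated without naming the measure.

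A ratio of at least 2 was found in 16 of the 417 pairs (3.84%) and a ratio of at most 0.5 in 111 (26.6%). Without IgG peaks the counts were 2 and 12 of 94. In CPM per kb they were 4 and 0 of 417. However, CPM per kb varied little within either whole list, with quartiles of 1.46 and 1.85 for HSF1 and 1.13 and 1.57 for HSF2. A 2-fold difference per kb thus had little room to arise, and its rarity is not read as equal height of the factors. The exact interval of the ratio held 1 in 192 of the 417 pairs, lay above 1 in 56 and lay below 1 in 169. Among the 94 pairs without IgG it held 1 in 71, lay above 1 in 5 and lay below 1 in 18. For most of these pairs a difference in height between the factors was not detectable at this depth. The pairs nearest to the limits were on chromosome 19 with ratios of 2.01 (HSF1 chr19:37764245-37767038) and 1.95 (HSF1 chr19:36791049-36797844), and on chromosomes 22 and 13 with ratios of 0.4995 (HSF1 chr22:21379613-21382231) and 0.502 (HSF1 chr13:90805074-90806762).

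**Figure D3:**
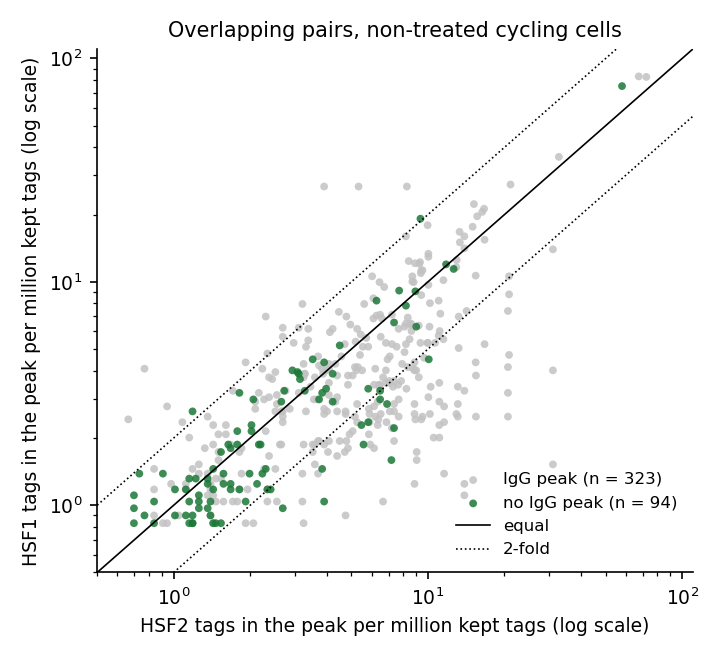
Each point is 1 of the 417 overlapping pairs, with the HSF1 peak's tags per 1000000 kept tags (CPM) on the y axis and those of the HSF2 peak on the x axis (both log scale). Green points are the 94 pairs without and grey points the 323 pairs with a non-treated cycling IgG peak, and most green points lie between the dotted lines that mark a 2-fold difference.

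The pairs with most tags among the 94 without IgG were not the pairs with the highest folds. The first was HSF1 chr5:9839-12186, which held 1087 HSF1 tags (75.2 CPM), against 1664 HSF2 tags (58.0 CPM) in chr5:9837-12207. It lies at the start of the chromosome and had a peak in all 9 other lists, 3 of them IgG. The deposited folds there were 1.37 for HSF1 and 2.25 for HSF2. Next came HSF1 chr2:91813510-91822053, with 19.2 CPM for HSF1 and 9.35 for HSF2, and then 4 peaks on chromosome 22 and 1 each on chromosomes 9, 7, Y and 12. Among these 10 pairs the deposited HSF1 fold ran between 0.99 and 2.91 and each pair had a peak in at least 1 IgG list of another condition. All 10 places therefore had an IgG peak under some condition. Of all 94 pairs only 26 had no peak in any IgG list, so this was common among them.

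Among pairs without IgG, the highest ratio of HSF1 over HSF2 was 2.22 (exact interval 1.36 to 3.63), at HSF1 chr5:69531702-69532880 with 38 tags (2.63 CPM), against 34 HSF2 tags (1.19 CPM). The next was the pair at HSF1 chr2:91813510-91822053 named above, with 2.05 (1.73 to 2.44), where the HSF1 peak was 8544 bp wide and the HSF2 peak 4346 bp. A further 3 pairs, written here by their HSF1 peaks, had ratios of 1.89 at chr8:142955117-142955873, 1.76 at chr4:9836-10395 and 1.59 at chr7:56886561-56887267. The interval of the first and of the last of these 3 included 1.

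At the lowest ratios the width of the HSF2 peak stood out in most pairs. At HSF1 chr22:19265195-19265959 the ratio was 0.222, but the HSF1 peak was 765 bp wide and the HSF2 peak 4838 bp, and per kb the ratio was 1.402. The same turn was seen at HSF1 chr4:9267710-9268303 (0.266, and 1.19 per kb), chr22:20265145-20266397 (0.301 and 1.16) and chr21:9663213-9664177 (0.335 and 1.37). The fifth pair was different. HSF1 chr11:122932691-122933173 held 14 tags (0.969 CPM), against 77 HSF2 tags (2.69 CPM) in chr11:122932409-122933542. Its ratio was 0.361 (0.189 to 0.643), it stayed below 1 per kb (0.847) and by depth-scaled fold (0.420), and the summits were 18 bp apart. This HSF2 peak also had the highest deposited fold of its list, 20.2, and no peak in any IgG list.

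The 10 peaks of highest deposited fold in each list were set beside the whole list. Of the 10 HSF1 peaks with the highest folds (7.48 to 11.1) 1 overlapped an HSF2 peak, 5 a non-treated cycling IgG peak and 7 a peak in at least 1 IgG list. Of the 10 HSF2 peaks with the highest folds (8.53 to 20.2) 4 overlapped an HSF1 peak, 1 a non-treated cycling IgG peak and 2 a peak in at least 1 IgG list. Both heat-treated cycling HSF lists had a peak at 1 of the 10 HSF1 peaks and at 7 of the 10 HSF2 peaks. Over the whole lists 8.63% of HSF1 and 39.0% of HSF2 peaks had a partner, near the counts of the 10. A non-treated cycling IgG peak was met by 20.4% and 39.1%, and one in any IgG list by 1931 of 4718 and 505 of 875. Heat-treated cycling HSF1 was met by 16.3% of all HSF1 and 34.9% of all HSF2 peaks, and heat-treated cycling HSF2 by 12.4% and 29.7%.

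The HSF1 peak of highest fold, chr11:19422958-19423794, held 37 tags (2.56 CPM) with a fold of 11.1. It had no HSF2 partner and no HSF1 peak in heat-treated cells, while the heat-treated cycling IgG list had a peak of 14 tags there (0.961 CPM). At chr17:80452081-80452935 heat-treated HSF1 had 24 tags (1.43 CPM), against 33 tags (2.28 CPM) in non-treated cells, with the summits 3 bp apart, and heat-treated IgG had 14. At chr11:11267850-11268908 HSF1 had 115 tags (7.96 CPM), against 30 tags of IgG (2.03 CPM) in the same treatment. The peaks chr12:124577132-124578149, chr2:170217494-170218059, chr2:121927154-121927861 and chr18:19133242-19133847 also had an IgG peak in non-treated cycling cells, with 40, 23, 24 and 25 HSF1 tags, against 12, 17, 12 and 17 IgG tags. Only chr8:32113635-32114401 (29 tags, 2.01 CPM), chr1:155214333-155215043 and chr6:26286339-26287223 (each 32 tags, 2.22 CPM) of the 10 had no peak in any of the 4 IgG lists. The peak on chromosome 8 had no peak in any other list, and the one on chromosome 6 had a heat-treated HSF2 peak of 15 tags.

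The peak at chr1:155214333-155215043 differed from the other 9 in being an HSF1 peak in every condition. Heat-treated HSF1 held 78 tags there (4.66 CPM, 3.68 to 5.82) with a fold of 20, against 32 tags (2.22 CPM, 1.52 to 3.13) with a fold of 8 in non-treated cells. The mitotic HSF1 lists had 14 tags with heat and 12 without. No HSF2 list and no IgG list had a peak there.

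Most of the top HSF2 peaks had peaks of both factors after heat. At chr2:198364246-198365320 heat-treated HSF1 had 9.62 CPM and heat-treated HSF2 7.19. In non-treated cells HSF1 held 20 tags there (1.38 CPM) and HSF2 64 (2.23 CPM, fold 17.8), with summits 22 bp apart. At chr22:41252279-41253240 heat-treated HSF1 had 4.36 CPM, against no HSF1 peak in non-treated cells, and heat-treated HSF2 4.78 CPM, against 63 tags (2.20 CPM, fold 16.3) in non-treated cells. Peaks at chr17:16283619-16284518 and chr13:34116781-34117537, with 33 and 40 HSF2 tags, likewise had an HSF1 peak with heat (85 and 44 tags) and none without. At chr19:1354126-1354820 both factors had a peak in both treatments. HSF1 had 5.68 CPM with heat, against 0.900 without, and HSF2 5.55 with heat, against 1.12 without. At chr2:87643884-87644859, the 1 peak of these 10 with an IgG peak in non-treated cells, HSF2 held 49 tags (1.71 CPM) in 976 bp, against 78 IgG tags (5.28 CPM) in 2561 bp, which is 1.75 and 2.06 CPM per kb.

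Another 3 of the top HSF2 peaks had no peak in either heat-treated cycling HSF list. The peak at chr1:14825195-14826476 held 120 HSF2 tags (4.18 CPM, 3.47 to 5.00) with a fold of 16.6, the highest CPM of these 10. The only other list with a peak there was HSF2 of non-treated mitotic cells, with 15 tags (1.01 CPM) and the summit 24 bp away. The peak at chr4:152950678-152951735 held 66 tags (2.30 CPM, fold 12.1), and there too HSF2 of non-treated mitotic cells was the only other list, with 27 tags (1.83 CPM). Both peaks lay well above the floor of the HSF1 list (0.831) and above that of the heat-treated HSF2 list (0.719). The peak at chr22:47986796-47987805 held 39 tags (1.36 CPM, fold 8.53) and had no peak in any other list.

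Sites bound under heat offered a way to look at the lists that used neither of them. Heat-treated cycling peaks of HSF1 or HSF2 with a deposited fold of at least 10 were merged into 309 regions. In non-treated cells HSF1 had a peak in 18 of them (5.83%, 3.72 to 9.02%), HSF2 in 37 (11.97%, 8.81 to 16.1%) and IgG in 8 (2.59%, 1.32 to 5.02%). Both factors had a peak in 12 regions, HSF1 alone in 6, HSF2 alone in 25, and neither in 266. The 25 regions with HSF2 alone held no non-treated cycling IgG peak. The HSF2 peak lay below the HSF1 floor in 6 of them and at or above it in 19, where an HSF1 signal near the floor could still have been missed. Seen from the lists, 16 HSF1 peaks (0.339%) and 34 HSF2 peaks (3.89%) lay at heat-treated HSF1 sites of that fold. The order of the factors rested on the threshold: regions with a fold of at least 5 included 80 with an HSF1 peak and 65 with an HSF2 peak, and regions with a fold of at least 20 included 10 and 14. The threshold was chosen with the data known.

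The 12 regions with a peak of both factors are described next. They had been kept for a heat-treated peak of HSF1 or HSF2 with a fold of at least 10. A higher value with heat is therefore fixed in part by that choice, and the steps below are descriptions. Heat-treated HSF2 reached that fold in all 12, and heat-treated HSF1 in all but chr17:31149136-31150111 and chr20:26188506-26191017. At chr11:122932364-122933595 heat-treated HSF1 had 7.77 CPM, against 0.969 in non-treated cells, and heat-treated HSF2 5.75, against 2.69. At chr2:198364229-198365512 HSF1 had 9.62 with heat, against 1.38 without, and HSF2 7.19, against 2.23. The HSF1 over HSF2 ratio was 1.35 (1.04 to 1.75) with heat, against 0.361 without, in the first region and 1.34 (1.06 to 1.69), against 0.620 (0.356 to 1.04), in the second.

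The peaks were also wider with heat in most regions. At chr21:45147813-45149007 HSF1 had 6.27 CPM with heat, against 0.831 without, and HSF2 3.70, against 1.46. At chr6:160210239-160211604 the HSF1 values were 9.44 with heat, against 1.18 without, and the HSF2 values 6.16, against 1.81. In these 4 regions the non-treated and the heat-treated interval of the ratio did not overlap.

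Heat-treated HSF1 had its most tags among the 12 regions in 2 neighbouring regions of chromosome 6. In chr6:31794357-31798016 heat-treated HSF1 had 35.9 CPM, against 3.25 in non-treated cells, and heat-treated HSF2 21.0, against 2.72. In chr6:31782105-31787511 the HSF1 values were 32.1 with heat, against 1.87 without, and the HSF2 values 22.7, against 1.64. The peaks of this second region were 3856 bp (HSF1) and 5336 bp (HSF2) wide with heat, against 884 and 997 bp without. Per kb, HSF1 there had 8.32 CPM with heat, against 2.11 without, and HSF2 had 4.26 with heat, against 1.64 without. Per kb in the first region, HSF1 had 10.1 CPM with heat, against 2.79 without, and HSF2 had 6.14 with heat, against 2.09 without. The non-treated HSF1 and HSF2 summits lay 11 and 12 bp apart in these regions. Heat-treated IgG also had a peak in both regions, with 5.42 and 4.81 CPM, and non-treated IgG had none. The non-treated ratios of HSF1 over HSF2 were 1.196 and 1.14, and the intervals of both included 1.

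Over the 12 regions the ratio of HSF1 over HSF2 had a median of 1.34 with heat (range 0.564 to 1.71), against 0.949 without (0.361 to 1.28). It was higher with heat in 10 of 12 regions, and in 9 of 12 by depth-scaled fold or per kb. In 4 regions the exact intervals of the ratio were apart. The 2 regions with the opposite order, chr17:31149136-31150111 and chr20:26188506-26191017, were the 2 with a non-treated cycling IgG peak, with 1.25 and 14.1 CPM for non-treated HSF1, 0.976 and 13.9 for non-treated HSF2 and 1.29 and 18.3 for non-treated IgG. These 2 regions were also kept through heat-treated HSF2 alone, with folds of 14.5 and 11.75, against 4.84 and 6.74 for heat-treated HSF1. That choice favours a low ratio with heat in them. Without these 2 regions the medians were 1.38 with heat and 0.844 without. The ratio was then higher with heat in 10 of 10 regions by CPM and in 9 of 10 by depth-scaled fold. The regions were chosen by the fold of their heat-treated peaks and by having both peaks without heat. These ratios therefore describe the regions and are not a test of heat. Summits of both factors lay within 100 bp in 11 of the 12, with a median distance of 22 bp. That is closer than in the 417 pairs as a whole, and the part of peak width in this was not tested.

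**Figure D4:**
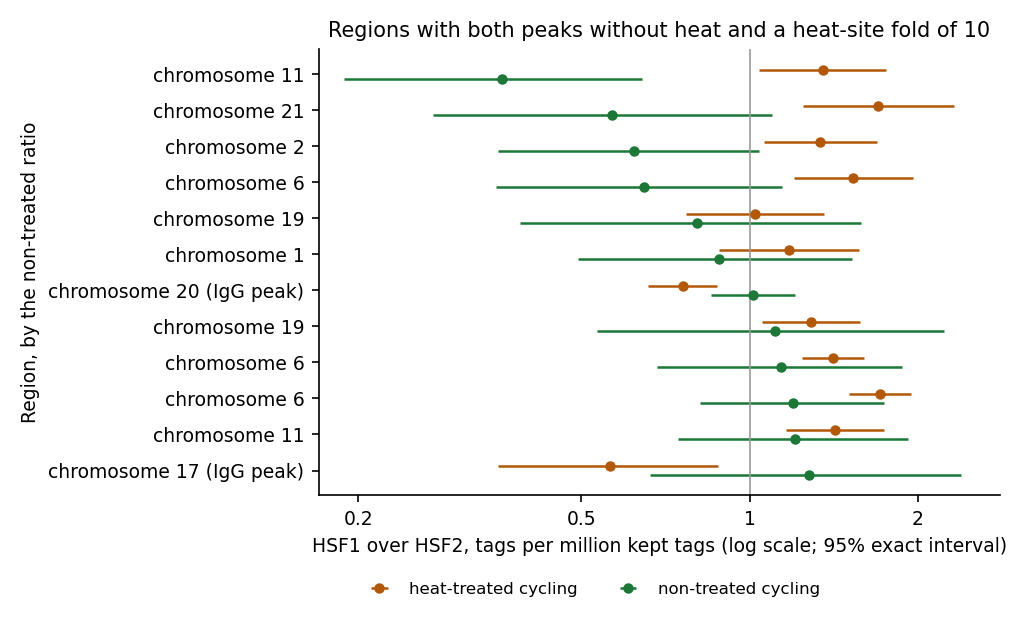
Ratio of HSF1 over HSF2 CPM (tags per 1000000 kept tags, log scale) with its exact 95% interval, in heat-treated and non-treated cycling cells, for the 12 regions of heat-site fold 10 with a peak of both factors without heat, sorted by the non-treated ratio and named by chromosome. The heat-treated point lies to the right of the non-treated one in 10 regions. The other 2 have a non-treated cycling IgG peak and were kept through heat-treated HSF2 alone.

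Peaks of the 4 sets recurred in the other lists of the series to very different degrees. Of all HSF1 peaks 16.3% had a peak in heat-treated cycling HSF1, 12.4% in heat-treated cycling HSF2 and 18.9% in heat-treated cycling IgG. Of all HSF2 peaks the shares were 34.9%, 29.7% and 33.1%. The mitotic lists differ widely in length, with 2373 peaks for IgG without heat and 41184 for IgG with heat, and the part of list length in the shares was not tested. In these lists the shares of HSF1 peaks ran between 9.03% (IgG, non-treated) and 29.0% (IgG, heat-treated), with 19.9% for HSF1 and 16.4% for HSF2 with heat and 18.8% for HSF1 and 24.9% for HSF2 without. Those of HSF2 peaks ran between 15.9% (IgG, non-treated) and 44.8% (HSF2, non-treated), with 39.8% for HSF1, 33.4% for HSF2 and 43.8% for IgG with heat and 36.1% for HSF1 without. In cycling cells IgG was thus met about as often as either factor. HSF1 peaks alone and without IgG recurred in 7.70% for HSF1, 5.08% for HSF2 and 8.97% for IgG with heat. HSF2 peaks alone and without IgG recurred in 12.7% for HSF1, 10.5% for HSF2 and 8.18% for IgG with heat.

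Shared peaks recurred more often, and so did IgG at them. Without a non-treated IgG peak, shared HSF1 peaks met a heat-treated peak of HSF1 in 43.9%, of HSF2 in 38.6% and of IgG in 37.9%. For shared HSF2 peaks without IgG these shares were 51.6%, 43.0% and 39.8%, and for shared HSF2 peaks with IgG 70.2%, 59.7% and 75%. Shared peaks are also the wider ones, as given above, and the part of width in these shares was not tested. With summits within 100 bp in place of any overlap, the shares of shared HSF2 peaks without IgG were 31.2% in heat-treated HSF1, 25.8% in heat-treated HSF2 and 18.3% in heat-treated IgG. For HSF2 peaks alone and without IgG they were 6.59% in each HSF list and 2.95% in IgG. Of all HSF1 peaks without an HSF2 partner, IgG peaks included, 12.2% had a peak of heat-treated HSF1, and of all HSF2 peaks without an HSF1 partner 13.5% had one of heat-treated HSF2. Counted as joined regions, 250 of the 331 non-treated regions with both factors (75.5%) had a peak of HSF1 or HSF2 with heat.

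At the extreme, 39 HSF1 peaks and 43 HSF2 peaks had a peak in all 11 other lists, the 4 IgG lists included.

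**Figure D5:**
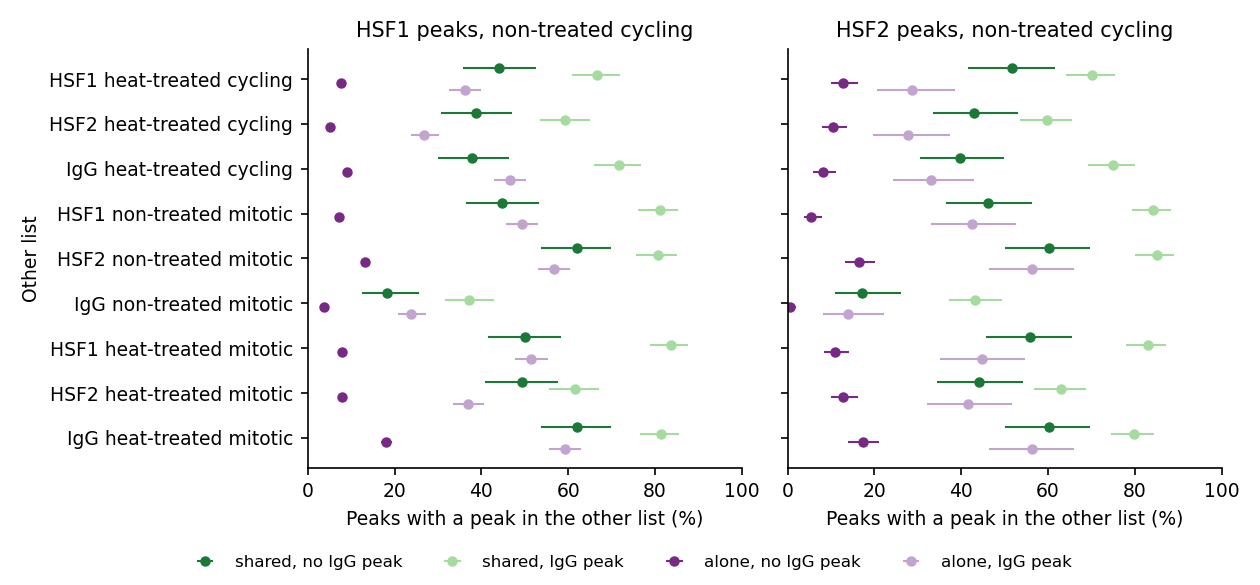
Share (%) of non-treated cycling HSF1 peaks (left) and HSF2 peaks (right) that overlap a peak of each of the 9 lists of other conditions, by set, with 95% Wilson intervals. Peaks alone and without IgG (dark purple) stay below 20% in every list, and shared peaks with IgG (light green) lie above the other sets in every list, IgG lists included.

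Peaks that followed 1 factor through the series were few. Among HSF1 peaks 132 overlapped a peak in at least 1 other HSF1 list and none in any HSF2 or IgG list, 14 did so in at least 2 and 4 in all 3. The 4 were chr1:155214333-155215043, already described, chr1:180991967-180992692 (27 tags, 1.87 CPM, fold 6.52), chr8:142212727-142213845 (32 tags, 2.22 CPM, fold 4.27) and chr7:102191235-102192027 (18 tags, 1.25 CPM, fold 2.08). A peak followed 1 factor here by overlap of at least 1 bp, whatever the distance between summits. At chr1:155214333-155215043 the other HSF1 summits lay 19 to 27 bp away. At chr1:180991967-180992692 they lay 26 bp (heat-treated cycling), 50 bp (non-treated mitotic) and 361 bp (heat-treated mitotic) away. In the same order they lay 5, 21 and 597 bp away on chromosome 8 and 367, 520 and 257 bp away on chromosome 7. Overlap alone is therefore not read as the same site. At chr1:180991967-180992692 heat-treated HSF1 had 29 tags (1.73 CPM), which lies within the interval of the non-treated value (1.23 to 2.72 CPM). Among HSF2 peaks 35 overlapped a peak in at least 1 other HSF2 list and none in any HSF1 or IgG list, 5 did so in at least 2 and 0 in all 3. The 1 of the 5 with the highest fold was chr19:2280957-2282188, where heat-treated cycling HSF2 had 15 tags (0.770 CPM), against 43 tags (1.499 CPM, fold 5.71) in non-treated cells. The summits lay 488 bp apart, and the peak was 606 bp wide with heat, against 1232 bp without. Per kb the values were 1.27 CPM with heat and 1.22 without. The peaks that followed 1 factor were chosen after their values were seen, and the shares are small, with 132 of 4718 and 35 of 875 peaks.

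The peaks were spread unevenly over the chromosomes, and 1 interval stood out in both lists and in IgG. Chromosome 22 held 469 HSF1 peaks (9.94%), 143 HSF2 peaks (16.3%) and 647 IgG peaks (4.11%), and 127 of the 417 pairs (30.5%), of which 109 had an IgG peak. Between 16 and 24 Mb of chromosome 22 lay 441 of these HSF1 peaks, 137 of the HSF2 peaks, 584 of the IgG peaks and 125 of the pairs. K562 cells are known for an amplified stretch of chromosome 22 that carries the BCR-ABL1 fusion. Whether copy number accounts for the pile of peaks was not tested. Chromosome 1 held 15.8% of HSF1, 11.8% of HSF2 and 17.3% of IgG peaks, chromosome 7 12.4%, 9.94% and 12.6%, and chromosome 19 3.84%, 6.51% and 3.27%. On these the HSF1 shares were closer to those of IgG than the HSF2 shares were.

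Peaks also sat in clusters. Another peak of the same list lay within 10 kb of 30.7% of HSF1 peaks, 25.4% of HSF2 peaks and 31.9% of IgG peaks. For peaks alone and without IgG the shares were 21.7% for HSF1 and 5.68% for HSF2, and for shared peaks with IgG 79.3% and 57.3%. For shared peaks without IgG they were 60.6% for HSF1 and 20.4% for HSF2, and for peaks with IgG alone 53.1% and 38.3%. The HSF2 peaks outside IgG regions were therefore mostly isolated. The regions that both factors and IgG had in common were mostly clustered, and so were the other HSF1 peaks that met HSF2 or IgG. The part of list length in these shares was not tested.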

How the data were processed

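Each of the 12 antibody libraries has 1 peak list, and the 2 input libraries served as controls of the calls. The submitters' processing notes name Bowtie, MACS 1.4 and the build hg19. MACS 1.4.1 is named per the file headers, with a p cutoff of 1e-05, a fragment size of 200 bp and 36 bp tags. In 5 lists, both HSF lists used here included, the alignments of the antibody library are named for bwa per the file headers, unlike the notes.

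Each peak's tags are a count, as deposited. Its score, as deposited, is the p-value of MACS as minus 10 log10. Its fold, a ratio to the input expected at the summit, and its false discovery rate in percent are those the authors deposited. In the smallest library, non-treated mitotic IgG, 2134 of 2373 called peaks have a deposited fold below 1, so the fold was taken as not adjusted for depth. Library sizes (kept tags) were taken from the headers.

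From these, tags in a peak were scaled to 1000000 kept tags (CPM), with exact Poisson intervals. Ratios of HSF1 over HSF2 have exact conditional intervals, shares Wilson intervals and medians binomial order-statistic intervals, all at 95% and all for counting error only. The depth-scaled fold divides the deposited fold by the library's kept tags. A peak counted as shared with 1 bp of overlap, and a pair as free of IgG when neither peak overlapped an IgG peak of the same treatment. The GenBank chromosome names of the non-treated cycling IgG list were translated to 1 to 22, X and Y. In a merged heat region the peak with most tags stood for each list.

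The members, comparisons and thresholds were chosen with earlier results of these data known, and the heat regions, the peaks that followed 1 factor and the depth-scaled fold after the values were seen. Named peaks are the 10 of highest fold in each list, the 10 pairs with most tags and the 5 with the highest and the 5 with the lowest ratio among pairs without IgG, and those beside a threshold. Each group has 1 library, so no test was run. Overlaps were compared with bedtools 2.31.1 in 144 pairs of lists and differed in 0, and the steps were tested on simulated data. The work used scipy 1.17.1, pandas 2.3.3, numpy 2.4.6 and matplotlib 3.10.9 under Python 3.11.15. Gene names, promoters and heat shock elements were not analysed here, because the gene tables at hand are of another build than hg19, and sites are given by position alone.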

Additional observations from a re-analysis of the deposited data

How the results depend on the processing

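No paired analysis was possible because each group holds 1 library, and for the same reason no replicate could be left out. Of 66 alternative values for 14 results, 11 stayed within the counting interval of the value reported (or, for a count, within 1.5 times it) and 55 moved beyond it. The causes of these shifts were not tested, beyond what the construction of an alternative implies. The 11 include scaling by total in place of kept tags, which could not move a value. Total and kept tags were 14446548 and 14446547 for HSF1 and the same number for HSF2.

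The share of HSF1 peaks with an HSF2 peak (8.63%) was 4.49% with 50% reciprocal overlap, 3.29% with summits within 250 bp, 6.38% with a fold of at least 5 in both lists, 9.76% with a score of at least 100 in both, 24% with the HSF1 list shortened to the HSF2 length by score, 2.50% without peaks at non-treated IgG peaks in either list and 0.933% without peaks at any of the 4 IgG lists. For HSF2 peaks with an HSF1 peak (39.0%) the values in the same order were 24.2%, 17.7%, 1.91%, 66.2%, 22.97%, 16.9% and 7.03%. HSF1 had the smaller share under 5 of the 7 and the larger one with a fold of at least 5 and with lists of equal length. With a fold of at least 5 the shares were 3 of 47 HSF1 and 3 of 157 HSF2 peaks. Both shares count the same overlaps, so their order depends largely on which list is shorter.

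The share of HSF1 peaks with an IgG peak (20.4%) was 13.9% with reciprocal overlap, 10.2% by summits, 18.9% with the heat-treated IgG list, 0.297% with IgG peaks of fold 5 and 27.7% for HSF1 peaks of fold 5. For HSF2 peaks (39.1%) these were 20.6%, 16.3%, 33.1%, 1.37% and 25.5%.

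The median summit distance (550 bp) was 160 bp with reciprocal overlap, 181.5 bp without non-treated IgG peaks, 263.5 bp without any IgG list, 240.5 bp at a score of 100 and 321 bp with 1 partner per HSF2 peak. The median ratio of HSF1 over HSF2 (0.794) was 1.07 with reciprocal overlap, 0.886 without non-treated IgG peaks, 0.938 at a score of 100 and 0.882 with 1 partner per HSF2 peak. It was 1.26 per kb and 1.25 by depth-scaled fold, so it crossed 1 under 3 alternatives. The number of pairs with a ratio of at least 2 or at most 0.5 (127) was 7 with reciprocal overlap, 14 without non-treated IgG peaks, 5 without any IgG list, 16 at a score of 100, 81 with 1 partner, 4 per kb and 12 by depth-scaled fold. The narrower lists of pairs are part of these lower counts.

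The share of shared regions with a heat-treated peak (75.5%) was 66.5% with reciprocal overlap, 52.6% by summits and 46.2% without any IgG list. For HSF1 peaks alone in heat-treated HSF1 (12.2%) these were 8.95%, 7.28% and 4.10%, and for HSF2 peaks alone in heat-treated HSF2 (13.5%) they were 10.1%, 9.18% and 9.01%. Heat-site regions with a non-treated HSF1 peak (18) numbered 80 at a fold of 5 and 10 at a fold of 20, and those with an HSF2 peak (37) numbered 65 and 14. With 14446547 kept tags for HSF1, peaks under 0.831 tags per 1000000 could not be listed.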
